A study of Mus musculus with 4 samples.

Results

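The mouse genes that encode the CHD (chromodomain helicase DNA-binding) remodellers and the ISWI ATPase Smarca5 were followed through the differentiation of female mouse embryonic stem cells (mESCs) and after depletion of Smarca4. The 10 members were the rows of the deposited gene table named Chd1 to Chd9 and Smarca5, out of 25965 listed genes, and all 10 were found. All 10 also passed the filter on low values, an average log2 CPM of at least 0 across libraries, which kept 13264 genes. CPM is the number of reads of a gene scaled to a fixed library size, and the deposited values are its log2.

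RNA-seq was available for 4 libraries of a female F1 line with the strain background FVB/CAST (FVB/NJ dams, CAST/EiJ sires). The day 0 library came from undifferentiated cells grown in 2i, which are inhibitors of MEK and GSK3, and its label names a nonsilencing control, although the hairpins were delivered later. The other 3 libraries came from day 6 of differentiation in DME HiHi medium, after viral transduction with an shRNA on day 2 and puromycin from day 3. They carried a non-silencing hairpin (Nons) or 1 of the 2 Smarca4 hairpins, named Smarca4.4 and Smarca4.6. A genotype field calls all 3 day 6 libraries, Nons included, a Smarcc knockdown, so groups follow the titles. Each group is 1 library, so no difference below could be compared with the spread between replicates, and no p-value is given. Intervals are exact 95% intervals of counting error between libraries, not between conditions. Differentiation was undirected, so the day 6 cells are a mixture.

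Remodellers of the SNF2 family use ATP to slide, space, evict or exchange nucleosomes. CHD proteins carry paired chromodomains and fall into classes: Chd1 and Chd2 act at transcribed genes, Chd3, Chd4 and Chd5 are alternative ATPases of the nucleosome remodelling and deacetylase complex NuRD, and Chd6 to Chd9 form the third class. Smarca5, also called SNF2H, is an ISWI ATPase that spaces nucleosomes in regular arrays with partners of the Baz family and others. Smarca4, also called BRG1, is the ATPase of the BAF complex, which mainly moves and evicts nucleosomes. The comparisons ask how the other remodellers behave on differentiation and whether any was higher where Smarca4 had been lowered.

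The hairpin sequences are shown because the comparisons with Nons rest on them, and because a stretch shared with a member would bear on its values. Each is the 22-base sense strand, 5′ to 3′, written as the reverse complement of the guide strand in the study's listed oligo. Capitals mark the bases that pair with positions 2 to 8 of the guide strand, its seed.
Smarca4.4: actggagtcagacaGTAATAAa
Smarca4.6: actgatgaacactaTTATGCAa
Nons: ctctcgcttgggcgAGAGTAAg

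The Smarca4.4 sequence matched GRCm38 (the mm10 assembly) at chr9:21703327-21703348 on the plus strand, in the last exon (exon 34 of 34) and the 3′ UTR of Smarca4, in 3 of 4 annotated transcripts. Smarca4.6 matched chr9:21670504-21670525, also on the plus strand, in coding sequence in 4 of 4 transcripts, which is exon 22 of 34 in 3 of them and exon 19 of 27 in the shorter transcript. No member held either target site. The closest stretch in a member's transcripts had 6 to 9 mismatches of 22 bases for Smarca4.4, 5 to 8 for Smarca4.6 and 7 to 9 for Nons. The letters GTAATAA, which pair with the Smarca4.4 seed, occurred in the longest coding transcript of 4 of 10 members (Chd1, Chd7, Chd9 and Smarca5), against 30.2% of 2023 genes with transcripts of the members' lengths. Those of Smarca4.6, TTATGCA, occurred in 3 of 10 (Chd1, Chd7 and Chd9; 35.1%) and those of Nons, AGAGTAA, in 8 of 10 (all but Chd4 and Chd5; 36.2%). Only the transcript strand was searched, and such a match is a description, not a site of action.

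Depth ran from 18599402 reads at day 0 to 47143739 in Smarca4.4, and 3 reads corresponded to between 0.0636 and 0.161 CPM. The lowest member, Chd5, had 91 reads at day 0 and 337 to 450 at day 6, and the others had at least 926 in every library. The log2 CPM of Smarca4 was 7.93 at day 0 and 7.84 in Nons, and in the knockdowns it was 7.04 (Smarca4.4) and 7.44 (Smarca4.6). Its level was thus 57.3% of Nons with Smarca4.4 and 75.8% with Smarca4.6, a partial reduction in both. The 10 naive mESC markers summed to 3697 CPM at day 0 and to 117 to 139 CPM at day 6, and 10 mesenchymal markers to 120 CPM and 740 to 1041 CPM. The day 6 libraries also differed among themselves in the mesenchymal sum (1041 CPM in Nons, against 831 with Smarca4.4 and 740 with Smarca4.6), most of which is the smooth muscle gene Tagln (852, 637 and 538 CPM). Tagln, Acta2 and Thy1 were highest in Nons, but 5 of the 10 mesenchymal markers (Vim, Twist1, Pdgfra, Col3a1 and Postn) were lowest there. Of all genes tested, 45.4% were lowest in Nons among the day 6 libraries. Col3a1 and Postn did not pass the filter, with 8 and 16 reads in Nons. The counting intervals of Twist1 overlapped among the day 6 libraries, as did those of Thy1 in Nons and Smarca4.6. Differences were also seen in the sums of neural markers (451, 446 and 486 CPM, from 170 at day 0, with 7 of 8 found) and of endoderm markers (4.96, 7.38 and 7.81 CPM, from 8.12 at day 0). Most of the neural sum at day 6 was Nes (380, 348 and 380 CPM, from 43.7 at day 0). Only 4 neural markers passed the filter: 2 were higher in Nons than at day 0 (Nes and Neurod1) and 2 lower (Tubb3 and Pax6). Of the 7 endoderm markers 2 passed (Gata4 and Sox17), both higher in Nons than at day 0. The fall of the endoderm sum came from genes below the filter, such as Gata6 (3.55 CPM at day 0, 0.612 in Nons). In bulk RNA, fewer cells of a type and less RNA per cell cannot be told apart.

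**Figure D1:**
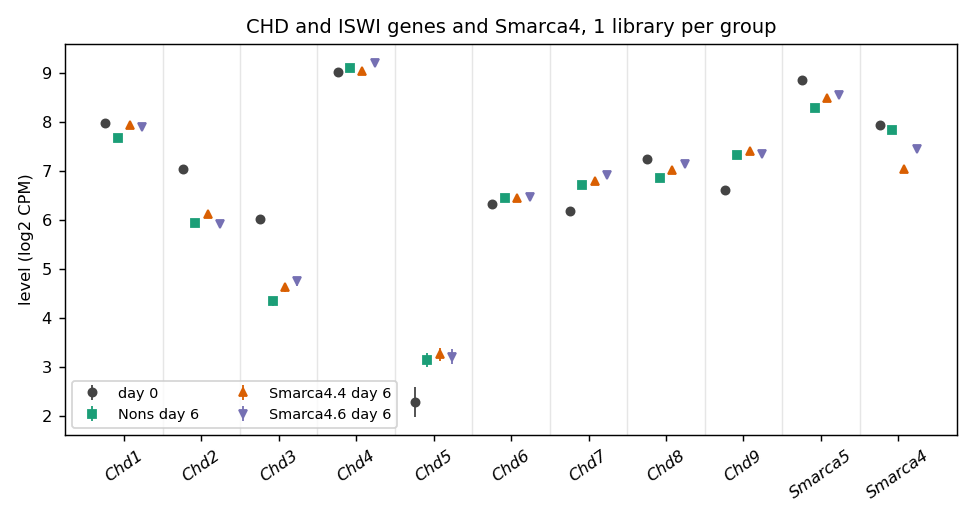
Level of each CHD and ISWI gene and of Smarca4 (log2 CPM, vertical axis) in the 4 libraries, with 95% counting intervals, which are mostly smaller than the points. Chd1, Chd2, Chd3, Chd8 and Smarca5 sit lower in all 3 day 6 libraries than at day 0, the other members sit higher, and Smarca4 is lowest in Smarca4.4.

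The members spanned a wide range of levels, and the same genes stood at its ends in all 4 libraries. Levels of different genes are given as CPM per kb of exon, over the union of annotated exons. Chd4 was highest, at 64.3 CPM per kb on day 0 and at 68.0 (Nons), 65.5 (Smarca4.4) and 73.4 (Smarca4.6) on day 6. Smarca5 was second (59.1, 40.0, 45.99 and 47.9) and Chd1 the third (28.7, 23.2, 28.2 and 27.4), each step larger than the counting intervals. Chd5, known mainly from neurons and testis, was last at 0.511, 0.926, 0.996 and 0.964 CPM per kb. Chd4 exceeded Chd5 by 126-fold at day 0 and by 65.8-fold to 76.2-fold at day 6.

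The order among the other 6 members differed between day 0 and day 6. At day 0 Chd2 (9.23 CPM per kb) and Chd8 (9.15) led, with overlapping counting intervals, followed by Chd3 (7.62) and Chd7 (5.28), and then by Chd9 (4.22) and Chd6 (4.20), whose intervals overlapped as well. In Nons the order was Chd7 (7.58), Chd8 (7.02), Chd9 (6.94), Chd6 (4.58), Chd2 (4.28) and Chd3 (2.40). The intervals of Chd8 and Chd9 overlapped there, and those of Chd6 and Chd2 met at their ends. Chd2 and Chd3 had thus moved from the upper to the lower places, and Chd7 and Chd9 the other way. The order of these 6 depends on the length used: by the longest transcript Chd8 ranked above Chd7 in every library and Chd7 fell to place 6 at day 6 and 9 at day 0, while places 1 to 3 and 10 stayed.

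**Figure D2:**
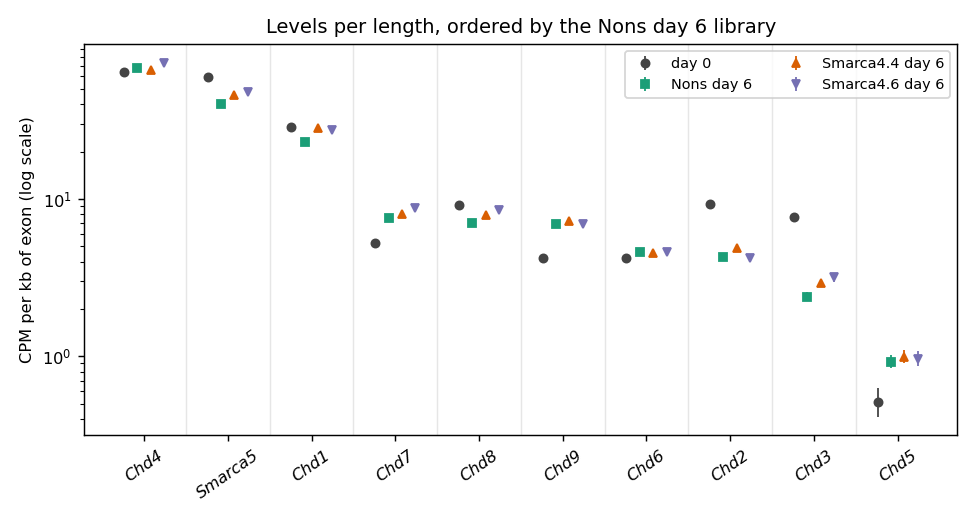
Level per length (CPM per kb of exon, log axis) of the 10 members in the 4 libraries, ordered by Nons, with 95% counting intervals. Chd4, Smarca5 and Chd1 lead in all 4 libraries and Chd5 is last, while Chd2 and Chd3 are the members with day 0 points far above their day 6 points.

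Between day 0 and Nons day 6 5 of 10 members were higher, as were 51.4% of all genes tested, and 5 were lower, as were 48.6%. Each of the 10 counting intervals left out 0, a count for which no share of all genes is given. The split is that of all genes. At 2-fold, 0 of 10 were higher, where 19.6% of all genes tested were, and 2 of 10 were lower (Chd2 and Chd3), where 12.3% of all genes tested were. Their median difference was -0.12 on the log2 scale, against 0.031 over all genes tested, whose central 90% ran from -1.83 to 3.29. Day 0 and Nons differ in time, medium and transduction, which cannot be told apart.

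Chd3, a NuRD ATPase (chr11:69343273-69369406, minus strand), had the largest fall. Its log2 CPM was 6.01 at day 0 and 4.34 in Nons, with 4.62 for Smarca4.4 and 4.75 for Smarca4.6. Every day 6 library lay at least 2-fold below day 0, and Nons held 31.4% of the day 0 level (difference -1.67, 95% interval -1.79 to -1.54). Only 5.86% of the genes tested had a lower difference. A predicted gene on the opposite strand, Gm17305, overlaps Chd3 and held 32 to 42 reads in each library, against 926 to 1197 for Chd3.

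Chd2, of the first class (chr7:73426691-73541746, minus strand), has been tied to deposition of the histone variant H3.3 at active genes. Its log2 CPM started at 7.04 on day 0 and by day 6 was 5.94 (Nons), 6.12 (Smarca4.4) or 5.92 (Smarca4.6). All 3 day 6 libraries were lower than day 0, with a difference of -1.11 (-1.19 to -1.03) for Nons. For Smarca4.4 it was -0.93, which is less than 2-fold.

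The other members with lower levels differed by less than 2-fold. Smarca5 (chr8:80698507-80739497, minus strand) was at a log2 CPM of 8.85 on day 0, and at day 6 it was at 8.28 (Nons), 8.48 (Smarca4.4) and 8.54 (Smarca4.6). Nons was thereby at 67.6% of day 0 (difference -0.57, -0.61 to -0.53). Chd8, a remodeller that binds beta-catenin and is linked to autism (chr14:52198151-52237791, minus strand), had 7.24, 6.86, 7.02 and 7.13 in the same order. The Nons difference of Chd8 was -0.38 (-0.45 to -0.32), and both knockdown libraries lay between Nons and day 0. Chd1, which binds trimethylated lysine 4 of histone H3 and keeps mESC chromatin open (chr17:15704967-15772610, plus strand), had 7.97, 7.66, 7.94 and 7.90. For Chd1 Nons lay farthest from day 0 (-0.31, -0.36 to -0.26), while Smarca4.4 differed from day 0 by -0.028 (-0.078 to 0.021) and Smarca4.6 by -0.069 (-0.12 to -0.018).

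Among the members with higher levels, Chd5 (chr4:152338651-152390194, plus strand) had the largest rise from the lowest level. On the log2 CPM scale it was at 2.29 on day 0 and at 3.15 (Nons), 3.25 (Smarca4.4) and 3.21 (Smarca4.6) on day 6. The 3 day 6 values lay close together above day 0, and the Nons difference of 0.86 had a wide interval (0.53 to 1.203), since Chd5 had 91 reads at day 0. Gm13645, annotated on the other strand within Chd5, had at most 5 reads.

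Chd9 and Chd7, of the third class, were also higher at day 6. Chd9 (chr8:90828835-91054508, plus strand) gave log2 CPM values of 6.61 (day 0), 7.33 (Nons), 7.39 (Smarca4.4) and 7.33 (Smarca4.6), and Nons differed from day 0 by 0.72 (0.64 to 0.79). Chd7, the gene mutated in CHARGE syndrome, acts at enhancers and in neural crest (chr4:8690406-8867659, plus strand) and had 6.19, 6.71, 6.80 and 6.91 in the same order. The Nons difference of Chd7 was 0.52 (0.43 to 0.61), with all 3 day 6 libraries above day 0. Gm6658, which overlaps Chd9 on the other strand, had at most 4 reads.

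In Nons, Chd4 and Chd6 stayed close to their day 0 levels. Chd4 (chr6:125095981-125130591, plus strand) went from a log2 CPM of 9.01 to 9.09 in Nons, a difference of 0.080 (0.046 to 0.11). For Chd6 (chr2:160946978-161109075, minus strand) the values were 6.33 and 6.45, a difference of 0.13 (0.040 to 0.21). Neither moved far from the median of all genes in Nons, and with centring on the autosomal median, itself 0.050, Chd4 came to 0.030. Against day 0, Chd4 differed by 0.027 (-0.008 to 0.061) with Smarca4.4 and by 0.19 (0.16 to 0.23) with Smarca4.6. For Chd6 these differences were 0.12 and 0.13.

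**Figure D3:**
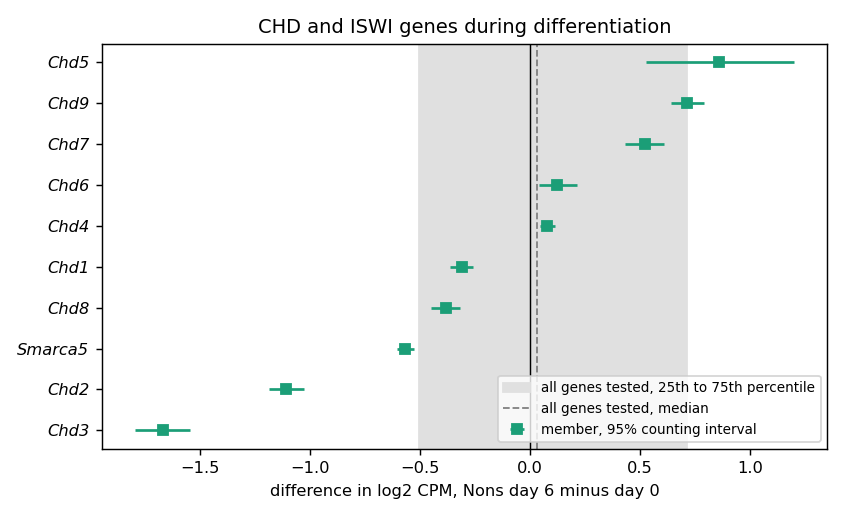
Difference in log2 CPM between Nons day 6 and day 0 (horizontal axis) for the 10 members, with 95% counting intervals, beside the median and the central 50% of all 13264 genes tested. Chd2 and Chd3 fall well below the central range of all genes, Smarca5 falls just below it, Chd9 sits at its upper edge and Chd5 above it.

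Within the NuRD ATPases the shift left Chd4 as a larger part of the total. Per length, Chd4 made up 88.8% of the summed level of Chd3, Chd4 and Chd5 at day 0, then 95.3% (Nons), 94.4% (Smarca4.4) and 94.7% (Smarca4.6). Chd3 went from 10.5% at day 0 to 3.36%, 4.19% and 4.10%. Chd5 stayed a minor part, at 0.704% at day 0 and 1.24% to 1.43% at day 6. In the sum over all 10 members, the libraries held 1830 CPM at day 0 and, at day 6, 1617 (Nons), 1729 (Smarca4.4) and 1806 (Smarca4.6).

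At day 6 the members were compared between each Smarca4 hairpin and Nons, to see whether another remodeller was higher where Smarca4 was lower. The differences were small: none of 10 members differed by 2-fold with either hairpin, as did 1.19% of all genes tested with Smarca4.4 and 1.82% with Smarca4.6. A fold of 1.2 was therefore counted too. With Smarca4.4, 2 of 10 members were at least 1.2-fold higher (Chd1 and Chd3), where 17.5% of all genes were, and 0 of 10 were 1.2-fold lower, where 13.1% were. With Smarca4.6, 2 of 10 were at least 1.2-fold higher (Chd3 and Chd8), where 24.3% of all genes were, and 0 of 10 were lower, where 15.2% were. The members' median difference was 0.14 with Smarca4.4 and 0.16 with Smarca4.6, against 0.038 and 0.064 for all genes tested. These counts depend on the scaling: after centring on the autosomal median (0.032 and 0.061) they were 0 with Smarca4.4 and 1 with Smarca4.6, Chd3. No share of all genes is given after centring, so the centred counts cannot be set against the other genes. Before centring, the shares of members at 1.2-fold are near those of all genes, so the counts are no result about the members.

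Both comparisons use the same Nons library, so they are not independent, and each value of Nons enters both. With both hairpins 1 of 10 members (Chd3) was at least 1.2-fold higher, where 11.5% of all genes were, and 0 of 10 at least 1.2-fold lower, where 7.78% were. By any amount 7 of 10 were higher with both, where 45.4% of all genes were. For 5 of them both counting intervals lay above 0 (Chd1, Chd3, Chd7, Chd8 and Smarca5). No share of all genes is given for the intervals, so this count of 5 is no result about the members. After centring the count at 1.2-fold with both was 0, and by any amount 5 of 10 were higher with both. The shares of all genes above are without centring, and none is given for these centred counts. In the related gene lists described below, 16 of 18 other SNF2-family ATPases and 7 of 9 ISWI partners were higher with both by any amount. So were 4 of 4 partners of Chd4 in the ChAHP complex and 3 of 12 NuRD subunits.

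Chd3 had the largest difference with a hairpin. From 4.34 in Nons its log2 CPM was higher by 0.28 (0.15 to 0.41) with Smarca4.4 and by 0.41 (0.28 to 0.54) with Smarca4.6. Both knockdown libraries lay above Nons and far below the 6.01 of day 0. Over all genes tested the highest 5% began at 0.53 for Smarca4.4 and 0.61 for Smarca4.6, so neither Chd3 value was among them.

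Chd1, at 7.66 in Nons, was 0.28 (0.24 to 0.32) higher with Smarca4.4 and 0.24 (0.20 to 0.28) higher with Smarca4.6. With 8711 to 11577 reads per day 6 library its intervals were narrow, and the knockdown libraries hardly differed from each other (0.041, 0.001 to 0.081).
Smarca5, at 8.28 in Nons, was 0.20 (0.17 to 0.24) higher with Smarca4.4 and 0.26 (0.23 to 0.30) higher with Smarca4.6, the latter just under 1.2-fold. Chd8, at 6.86 in Nons, was 0.17 (0.11 to 0.22) and 0.27 (0.21 to 0.32) higher. Chd7 was 0.091 (0.035 to 0.15) and 0.20 (0.15 to 0.26) higher. For Chd3, Chd7, Chd8 and Smarca5 the larger difference was seen with Smarca4.6, the hairpin with the smaller reduction of Smarca4, and for Chd1 with Smarca4.4. The median of all genes tested was also larger with Smarca4.6 (0.064, against 0.038 with Smarca4.4).

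The remaining members showed no common direction. Chd2 was 0.18 (0.11 to 0.25) higher with Smarca4.4, while with Smarca4.6 the value was -0.017 (-0.098 to 0.064). Chd9 was 0.064 (0.018 to 0.11) higher with Smarca4.4 and differed by 0.007 (-0.042 to 0.057) with Smarca4.6. Chd6 stayed within counting error of Nons in both (-0.008, -0.072 to 0.055, and 0.007, -0.061 to 0.074), and so did Chd5 (0.11, -0.091 to 0.30, and 0.058, -0.16 to 0.27), for which 337 to 450 reads leave room for a difference of up to 0.30. Chd4 lay on opposite sides of Nons, at -0.053 (-0.079 to -0.028) with Smarca4.4 and 0.11 (0.084 to 0.14) with Smarca4.6.

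**Figure D4:**
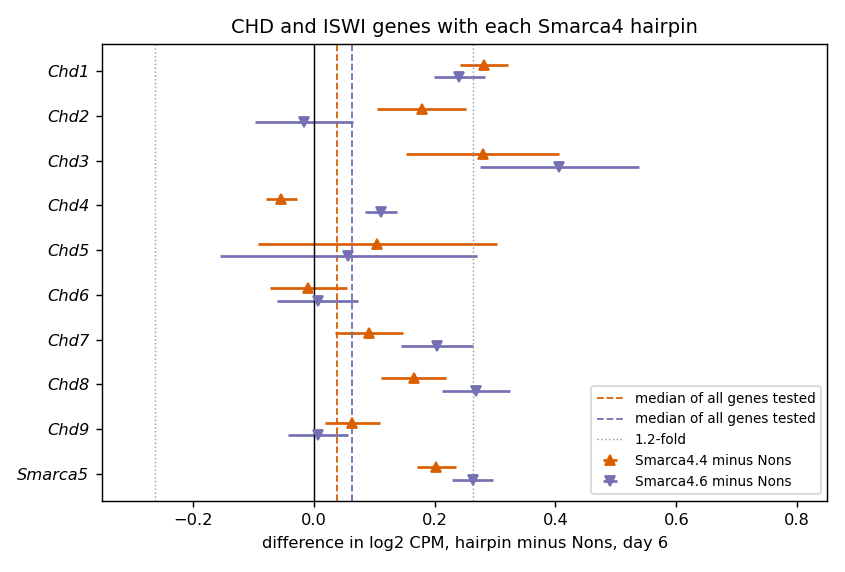
Difference in log2 CPM from Nons (horizontal axis) of the 10 members with Smarca4.4 (triangles up) and Smarca4.6 (triangles down), with 95% counting intervals, dashed lines for the medians of all genes tested and dotted lines at 1.2-fold. The intervals of Chd1, Chd3, Chd7, Chd8 and Smarca5 lie right of 0 with both hairpins, Chd3 is farthest right at 0.41 and Chd4 falls on both sides of 0.

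The knockdown libraries were also compared directly, which leaves Nons out. Of the 10 members, 0 differed by 1.2-fold between Smarca4.4 and Smarca4.6 in either direction, where 24.9% of all genes tested did. That share was not matched for level, and it includes genes with far fewer reads than most members, for which counting error is larger. The median was -0.037, against -0.031 for all genes. Chd2 had the largest difference (0.20 higher in Smarca4.4, 0.12 to 0.27), followed by Chd4 (-0.16, -0.19 to -0.14) and Chd3 (-0.13, -0.25 to -0.003). Smarca4 itself differed by -0.40 (-0.45 to -0.35).

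Cell division genes and cell type markers also differed between these libraries. The 8 cell division genes summed to 3856 CPM at day 0 and to 2797 (Nons), 3032 (Smarca4.4) and 3066 (Smarca4.6) at day 6. Among the day 6 libraries this sum was lowest in Nons, as were the levels of Chd1, Chd3, Chd5, Chd7, Chd8, Chd9 and Smarca5 and of 45.4% of all genes tested. For Chd5 with both hairpins, and for Chd9 with Smarca4.6, the difference from Nons lay within counting error. Of the 8 cell division genes, 6 were lowest in Nons, where 45.4% of all genes tested were. Ccnb1 was highest there (309 CPM, against 305 and 298) and Top2a was lowest with Smarca4.6 (782 CPM, against 796 in Nons). The mesenchymal sum was highest in Nons through Tagln and Acta2, and 5 of the 10 mesenchymal markers were lowest there, among them Col3a1 and Postn, which did not pass the filter. The part of either in the members' differences was not tested.

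The partners of the members were read from lists of 12 NuRD subunits, 9 ISWI partners, 4 partners of Chd4 in the ChAHP complex and 18 other SNF2-family ATPases. All of their genes passed the filter. From day 0 to Nons, 1 of 12 NuRD subunits was at least 2-fold higher (19.6% of all genes tested) and 0 lower (12.3% of all), with a median difference of -0.033. Mbd2, the methyl-CpG binding subunit that takes the place of Mbd3, was at a log2 CPM of 2.48 on day 0 and at 3.86 (Nons), 3.92 (Smarca4.4) and 3.65 (Smarca4.6) on day 6, a difference of 1.38 (1.08 to 1.69) for Nons. With both hairpins 0 of 12 NuRD subunits were 1.2-fold higher or lower, where 11.5% and 7.78% of all genes were, and their medians were -0.037 with Smarca4.4 and 0.085 with Smarca4.6.

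Of the 9 ISWI partners, 1 was higher in Nons than at day 0 by any amount and 8 were lower, where 51.4% and 48.6% of all genes were. Their median was -0.43, and 1 of 9 was at least 2-fold lower, where 12.3% of all genes were. That was Baz2b, a bromodomain protein, which was at 7.36 on day 0, 4.74 in Nons, 4.80 under Smarca4.4 and 4.99 under Smarca4.6 (Nons difference -2.62, -2.72 to -2.52). Against Nons, the medians of the list were 0.092 with Smarca4.4 and 0.25 with Smarca4.6, and 2 of 9 genes were at least 1.2-fold higher with both, where 11.5% of all genes were. Bptf, the large subunit of the NURF complex, had log2 CPM values of 7.73 (day 0), 7.48 (Nons), 7.91 (Smarca4.4) and 7.90 (Smarca4.6), and was 0.42 above Nons with each hairpin (0.38 to 0.47 for both). Pole3, a histone-fold subunit of CHRAC and of DNA polymerase epsilon, had 5.25, 4.58, 4.94 and 4.99 in the same order, or 0.36 (0.25 to 0.48) and 0.41 (0.29 to 0.53) above Nons.

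The other ISWI ATPase, Smarca1 (SNF2L, chrX:47809368-47892974, minus strand), belongs to the list of other ATPases and had the largest difference there. On 32 reads its log2 CPM was 0.78 at day 0, and at day 6 it was 4.07 (Nons), 4.5996 (Smarca4.4) and 4.58 (Smarca4.6). It was low at day 0 and present in all 3 day 6 libraries, with a Nons difference of 3.29 (2.78 to 3.85). Smarca5 nevertheless made up 99.5% of the summed level per length of Smarca5 and Smarca1 at day 0 and 93.6%, 92.1% and 92.5% at day 6. With the hairpins Smarca1 was 0.53 (0.39 to 0.66) and 0.51 (0.37 to 0.65) above Nons. It is X-linked, and the 498 X-linked genes tested had medians of -0.66 from day 0 to Nons and 0.19 and 0.14 with Smarca4.4 and Smarca4.6, against autosomal medians of 0.050, 0.032 and 0.061.

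Of the 18 other ATPases 16 were lower in Nons than at day 0, where 48.6% of all genes were, with a median of -0.56. At least 2-fold lower were 2 of 18, near the 12.3% of all genes. Smarca2 (BRM), the alternative ATPase of BAF, had a log2 CPM of 4.28 (day 0), 1.87 (Nons), 2.08 (Smarca4.4) and 2.00 (Smarca4.6). The Nons difference of Smarca2 was -2.41 (-2.68 to -2.14), and its differences from Nons with the hairpins, 0.21 (-0.094 to 0.52) and 0.13 (-0.20 to 0.46), lay within counting error. Chd1l, an ATPase recruited by poly(ADP-ribose), had 5.53, 4.10, 4.29 and 4.71 in the same order, or -1.43 (-1.57 to -1.29) in Nons. The medians of the 18 were 0.19 with Smarca4.4 and 0.14 with Smarca4.6.

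With both hairpins 4 of the 18 were at least 1.2-fold higher than Nons, where 11.5% of all genes were, and 0 lower, where 7.78% were. After centring on the autosomal median 2 of the 18 remained past 1.2-fold (Smarca1 and Btaf1), a count for which no share of all genes is given. Before centring, the 4 were Smarca1, Btaf1, which removes TBP from DNA (0.38 with Smarca4.4 and 0.56 with Smarca4.6, from 6.55 in Nons), Smarcad1, which acts at heterochromatin and DNA breaks (0.41 and 0.30, from 6.97), and Shprh, a ubiquitin ligase of damaged replication forks (0.27 and 0.28, from 6.04). In the ChAHP list, which holds Adnp and the HP1 genes Cbx1, Cbx3 and Cbx5, 0 of 4 genes passed 2-fold between day 0 and Nons or 1.2-fold with a hairpin. Its medians were -0.48 from day 0 to Nons, 0.19 with Smarca4.4 and 0.20 with Smarca4.6.

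**Figure D5:**
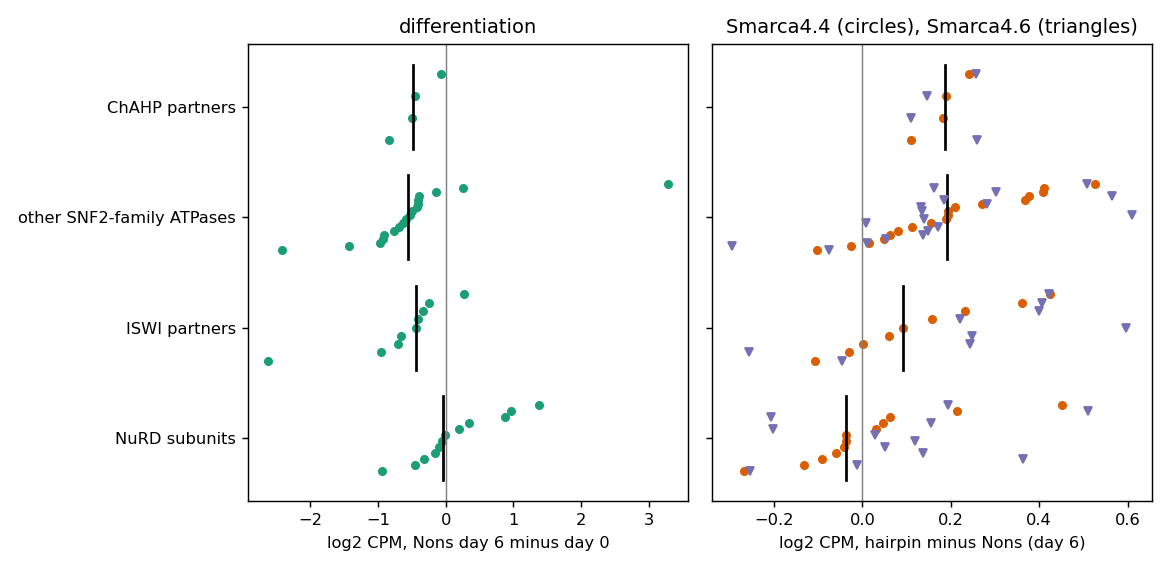
Differences in log2 CPM of the genes in the lists of partners and other ATPases, from day 0 to Nons (left, circles) and from Nons to each hairpin at day 6 (right, circles for Smarca4.4 and triangles for Smarca4.6), each gene a point. Black bars are list medians (Smarca4.4 in the right panel), and the point at 3.29 on the left is Smarca1.

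For the members with the largest rise and the largest fall from day 0 to Nons, the genes nearest in profile were sought among 52 genes, namely the members and these lists, by the Euclidean distance of the 4 log2 CPM values after subtracting each gene's mean. Chd5 was nearest to Chd9 (distance 0.155), then to the NuRD subunit Mta3 (0.205) and to Chd7 (0.283). Chd3 was nearest to Chd1l (0.319), then to Chd2 (0.459) and to Srcap, the ATPase that deposits H2A.Z (0.510). With 4 libraries these distances mostly reflect the step from day 0 to day 6.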

How the data were processed

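RNA from 4 libraries was sequenced as 75 bp paired-end reads; per the study's methods the authors trimmed with trim_galore, aligned with HISAT2 (tophat is also named) to mm10 with FVB and CAST variants masked, and quantified exons per gene in SeqMonk, with both alleles combined. The strand setting is not given in the sources used here. The deposited values are log2 CPM, 1 column per library. Reads were recovered from the steps of the values (99.99% of nonzero values within 0.1 read of a whole number), and 91.3% to 92.3% of the reads lay in listed genes. With 1 library per group a count test has no spread to estimate, and none was run.

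Differences are between deposited values, with exact (Clopper-Pearson) 95% intervals, and levels have exact Poisson intervals. These and the floor of 3 reads cover counting error only. Genes with a mean log2 CPM of at least 0 were tested; 2-fold and 1.2-fold were counted. Lengths and positions came from GENCODE M21 on GRCm38. The genes named are the members, Smarca4, genes overlapping a member, the nearest profiles, and, per partner list, up to 4 in each direction past 2-fold from day 0 to Nons or past 1.2-fold with both hairpins. The members and lists were chosen with earlier results of these data known. Of symbols on more than 1 row (124 rows), the higher-mean row was used. The computations were tested on simulated reads. Alternatives were centring on the autosomal median, median-ratio scaling, a pseudocount of 1 CPM, no filter, a mean of at least 3, and the longest transcript as length. Python 3.11.15 was used with numpy 2.4.6, pandas 2.3.3, scipy 1.17.1 and matplotlib 3.10.9.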

Additional observations from a re-analysis of the deposited data

Results flagged for a closer look

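Chd4 was the member whose libraries lay clearly on opposite sides of Nons: the difference in log2 CPM was -0.053 with Smarca4.4 and 0.11 with Smarca4.6. The difference between the hairpins was not tested, since each is 1 library.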

How the results depend on the processing

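Of 231 values that answer a comparison, computed under the alternatives, 215 stayed close to the reported value and 16 moved. After centring on the autosomal median, members at least 1.2-fold higher came to 0 with Smarca4.4, 1 with Smarca4.6 and 0 with both hairpins, and median-ratio scaling gave the same counts of 0, 1 and 0. With centring, 3 NuRD subunits (0 as reported) and 1 ISWI partner (0 as reported) were 1.2-fold lower with Smarca4.6, and 3 other ATPases (5 as reported) were higher. With both hairpins and centring, 2 other ATPases (4 as reported) were 1.2-fold higher and 1 NuRD subunit (0 as reported) was lower. No share of all genes is given for these centred counts. With a mean log2 CPM of at least 3, 1 of the other ATPases (2 as reported) was 2-fold lower from day 0 to Nons, because Smarca2 was no longer tested. By the longest transcript, the share of Chd5 among the NuRD ATPases was 0.597% at day 0 and 1.10% in Nons, and the ratio of the highest to the lowest member was 149 at day 0 and 87.1 in Nons. Of 144 single-gene values, 112 were labelled the same, 24 moved and 8 reversed. With Smarca4.6 the differences from Nons after centring and after median-ratio scaling were -0.0038 and -0.015 for Chd5, -0.055 and -0.066 for Chd6, and -0.054 and -0.066 for Chd9, and the difference between the hairpins for Chd6 was 0.018 and 0.019.

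No paired analysis was possible because the labels give 1 library to every group, all with the number 3. Leaving out a replicate was not possible either, and counting intervals leave out the variation between cultures. Depth limits Chd5 most.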
